A study of Mus musculus with 9 samples.

Results

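The angiogenic growth factors considered here are 10 genes, taken by symbol from the deposited count table of 55276 genes: the VEGF family ligands Vegfa, Vegfb, Vegfc and Pgf, the angiopoietins Angpt1 and Angpt2, the angiopoietin-like factors Angptl2 and Angptl4, and the VEGF receptors Flt1 and Kdr. All 10 were found in the table, 9 passed the filter on low counts, and Kdr did not. They were measured by RNA-seq in PPTR cells, a mouse intrahepatic cholangiocarcinoma (iCCA) line adapted to 2-dimensional culture from organoids of liver tumors that arose in mice with Prom1CreERT2 and Rosa-ZsGreen, so that the inducible Cre driven by Prom1, the ZsGreen reporter and the other engineered alleles of the line are shared by every group. The study compared 3 groups of 3 libraries each: control cells (Vcam1ctrl, labelled WT) and 2 lines made with a Cas9 guide to Vcam1, Vcam1KO1 and Vcam1KO2, each of which is 1 single-cell clone. The 3 libraries of a group came from 3 passages of the same cells. P values that compare these 3 groups therefore measure the spread between passages. Where the 6 clone libraries were pooled, the difference between the clones also counted as spread, and 6 libraries are not 6 independent lines. Replicates are numbered in the order of the samples, so a number shared by groups does not mark a shared passage. The effect of Vcam1 loss and the history of a clone cannot be told apart within 1 clone, and the control was not described as a clone.

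VEGF-A drives the sprouting of blood vessels by activating the receptor tyrosine kinase KDR on endothelial cells, whereas FLT1 binds VEGF-A, VEGF-B and placental growth factor with high affinity and signals more weakly. Angiopoietin-1 activates the endothelial receptor TEK and steadies vessels, and angiopoietin-2 can oppose it. Tumor cells commonly secrete several of these factors, and Vegfa is a classic target of hypoxia-inducible factors.

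The promoters of 4 members are shown, because Vegfa and Pgf were lower in both clones and Vegfc and Flt1 were among the members that separated the clones most. Each is the 250 bases before the RefSeq start on GRCm38.p6, written 5′ to 3′ on the gene's strand, at chr17:46032378-46032627 (minus strand) for Vegfa, chr12:85177314-85177563 (minus) for Pgf, chr8:54077282-54077531 (plus) for Vegfc and chr5:147726012-147726261 (minus) for Flt1. Capitals mark matches, on either strand, to a GC box (GGGCGG), to the TATA box (TATAAA), a cyclic AMP response element (TGACGTCA), an E box of the E2 type (CACCTG) and the core of the hypoxia response element, which was searched as ACGTG and in its other common form as GCGTG. No 2 matches in these 4 windows share a base.
Vegfa: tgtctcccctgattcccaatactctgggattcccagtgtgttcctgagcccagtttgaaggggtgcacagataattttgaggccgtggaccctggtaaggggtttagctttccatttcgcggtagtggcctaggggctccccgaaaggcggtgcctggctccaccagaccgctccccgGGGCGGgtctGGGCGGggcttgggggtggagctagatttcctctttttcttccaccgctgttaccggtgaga
Pgf: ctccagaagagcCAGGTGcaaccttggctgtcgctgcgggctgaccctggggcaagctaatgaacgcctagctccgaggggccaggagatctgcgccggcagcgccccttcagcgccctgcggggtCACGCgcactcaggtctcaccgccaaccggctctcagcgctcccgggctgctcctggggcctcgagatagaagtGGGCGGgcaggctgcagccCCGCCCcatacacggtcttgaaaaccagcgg
Vegfc: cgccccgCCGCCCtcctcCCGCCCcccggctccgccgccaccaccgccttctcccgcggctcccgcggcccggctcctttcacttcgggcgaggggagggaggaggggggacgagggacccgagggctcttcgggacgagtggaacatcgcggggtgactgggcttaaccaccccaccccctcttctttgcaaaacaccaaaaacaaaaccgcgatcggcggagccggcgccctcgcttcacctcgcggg
Flt1: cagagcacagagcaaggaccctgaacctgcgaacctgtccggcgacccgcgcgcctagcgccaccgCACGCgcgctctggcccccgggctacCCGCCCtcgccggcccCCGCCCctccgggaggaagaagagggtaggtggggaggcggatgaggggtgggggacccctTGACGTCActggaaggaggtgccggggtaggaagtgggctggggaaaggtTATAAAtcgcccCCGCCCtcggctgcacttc
The Vegfa and Vegfc windows each held 2 GC boxes and no other searched motif. The Pgf window held 2 GC boxes, 1 hypoxia core and 1 E2 box. The Flt1 window held 3 GC boxes and 1 hypoxia core, with a TATA box from 31 to 26 bases and a cyclic AMP response element from 81 to 74 bases before the start. Of 32851 mouse promoter windows of the same length, 32.7% held a GC box, 38.6% a hypoxia core, 17.2% an E2 box, 12.4% a TATA box and 1.55% the cyclic AMP response element. Windows were found for 7 members, and all 7 held a GC box. Promoters of Angpt1, Angpt2 and Angptl4 are not shown.

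The genes lie apart in the genome. In GENCODE vM21 on GRCm38, Vegfa spans chr17:46016993-46032369 and Angptl4 chr17:33773750-33781830, both on the minus strand, Vegfc spans chr8:54077606-54187096 on the plus strand and Angpt2 chr8:18690263-18741562 on the minus strand, and Flt1 (chr5:147561604-147726011) and Kdr (chr5:75932827-75978458) share chromosome 5. Vegfb (chr19:6982473-6987651), Pgf (chr12:85166635-85177790) and Angpt1 (chr15:42424723-42676977) are on the minus strand, and Angptl2 (chr2:33216069-33247717) is on the plus strand. The Pgf promoter window lies inside that span, since GENCODE also has a transcript that starts further upstream. No member shares exon bases with a gene on its own strand. Angpt1 overlaps Gm17473 on the opposite strand, and the reads were counted by strand.

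Library totals ran from 53415907 to 125223073 estimated counts. Levels are given in CPM, read counts relative to library size, scaled by TMM factors. Vcam1 itself was lower in both clones, from 266 CPM on average in Vcam1ctrl to 106 in Vcam1KO1 and 100.3 in Vcam1KO2, and no clone library reached a control library. The defining biliary epithelial markers were nearly absent from the clones. Krt19 averaged 2291 ± 145 CPM (SD, n = 3) in Vcam1ctrl and 0.104 ± 0.0694 CPM in the clones (SD, n = 6, 3 libraries of each). Epcam and Cdh1 fell with it, so the clones go against their label as biliary cancer cells for these genes. Of 8 biliary markers, 7 were tested, and 4 were lower, 1 was higher and 2 were not called with the clones pooled. Of 9 pericyte and fibroblast markers, 7 were tested, and 5 were higher, 1 was lower and 1 was not called. In this comparison 21.7% of all tested genes were higher and 21.2% lower. Col1a1, a fibroblast collagen, rose from 99.3 to 6630 CPM, the pericyte gene Cspg4 fell from 15.7 to 0.0937 CPM, and Dcn fell in Vcam1KO1, from 74.6 to 4.34 CPM. The summed level of the 9 was 162.5 to 333.9 CPM in Vcam1ctrl, 8485 to 10230 in Vcam1KO1 and 4654 to 5605 in Vcam1KO2, and in the clones it was mostly Col1a1 (8526 and 4733 CPM on average). Summed endothelial markers stayed at or under 23.9 CPM in every library, and 5 of 13 genes in Vcam1ctrl, 3 in Vcam1KO1 and 7 in Vcam1KO2 had at most 3 counts in each library. Replicate 3 of Vcam1KO1 stood apart from the other 2, with 27.6 CPM of the proliferation gene Mki67 against 216 and 238. The part of these shifts in the results below was not tested.

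Vegfa carried the highest level of the family in control cells and was lower in each clone. It stood at 636, 540 and 613 CPM in the 3 Vcam1ctrl libraries, at 63.9, 66.9 and 177 CPM in Vcam1KO1 and at 310, 322 and 139 CPM in Vcam1KO2. The 6 clone libraries were all below the lowest control library, but the clones overlapped each other, because Vcam1KO1 replicate 3 was above Vcam1KO2 replicate 3. In these bulk samples, fewer cells of a type and less RNA per cell cannot be told apart. The log2 fold change was -2.54 ± 0.44 (SE; adjusted p = 0.000862) in Vcam1KO1 and -1.22 ± 0.43 (adjusted p = 0.0371) in Vcam1KO2, by the quasi-likelihood test of edgeR, with p values adjusted over 17672 genes. Without Vcam1KO1 replicate 3 the change in that clone was larger, at -3.18 (adjusted p = 6.95e-05). The change in Vcam1KO2 missed the threshold without any 1 of 5 libraries, at an adjusted p of 0.0853, 0.0514 and 0.0757 without Vcam1ctrl replicates 1, 2 and 3 and of 0.0521 and 0.0962 without Vcam1KO2 replicates 1 and 3. Within each clone, replicate 3 was the library furthest from the other 2 in Vegfa level, and it had the lowest Mki67 of its clone in Vcam1KO1 (27.6 CPM) and the highest in Vcam1KO2 (331.5 CPM).

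Pgf, which encodes placental growth factor, a ligand of FLT1, was also lower in both clones. Its level was 5.86, 5.13 and 9.05 CPM in Vcam1ctrl, 1.11, 0.876 and 0.750 CPM in Vcam1KO1 and 0.462, 0.594 and 0.473 CPM in Vcam1KO2, without overlap between any of the groups. The clones' counts were small, from 27 to 84 per library. The fall was 7.32-fold in Vcam1KO1 (log2 -2.87 ± 0.29, adjusted p = 2.76e-05) and 13.1-fold in Vcam1KO2 (log2 -3.71 ± 0.31, adjusted p = 9.49e-06).

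Vegfb, another FLT1 ligand, which is best known for its action on fatty acid uptake by the endothelium, was higher. Libraries held 44.6, 35.9 and 48.0 CPM in Vcam1ctrl, 82.9, 85.7 and 108 CPM in Vcam1KO1 and 56.5, 62.1 and 53.6 CPM in Vcam1KO2, again without overlap. The rise was 2.15-fold in Vcam1KO1 (log2 1.10 ± 0.14, adjusted p = 0.000144). In Vcam1KO2 it was 1.34-fold (log2 0.42 ± 0.14, adjusted p = 0.0331), a call that was lost with upper-quartile scaling (adjusted p = 0.0649) and without any 1 of 5 libraries: Vcam1ctrl replicates 1 (0.067) and 2 (0.106) and Vcam1KO2 replicates 1 (0.0767), 2 (0.11) and 3 (0.0539).

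Vegfc, the ligand that drives lymphatic growth through the receptor FLT4, moved in opposite directions in the clones. It was at 7.32, 6.07 and 5.42 CPM in Vcam1ctrl, fell to 1.08, 1.02 and 0.846 CPM in Vcam1KO1 and rose to 15.6, 17.5 and 13.2 CPM in Vcam1KO2. The log2 fold change was -2.67 ± 0.20 (adjusted p = 4.12e-06) in Vcam1KO1 and 1.30 ± 0.19 (adjusted p = 0.000322) in Vcam1KO2. Directly compared, Vcam1KO1 was 15.7-fold below Vcam1KO2 (log2 -3.97 ± 0.21, adjusted p = 3.12e-06), and these calls held without any single library.

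**Figure D1:**
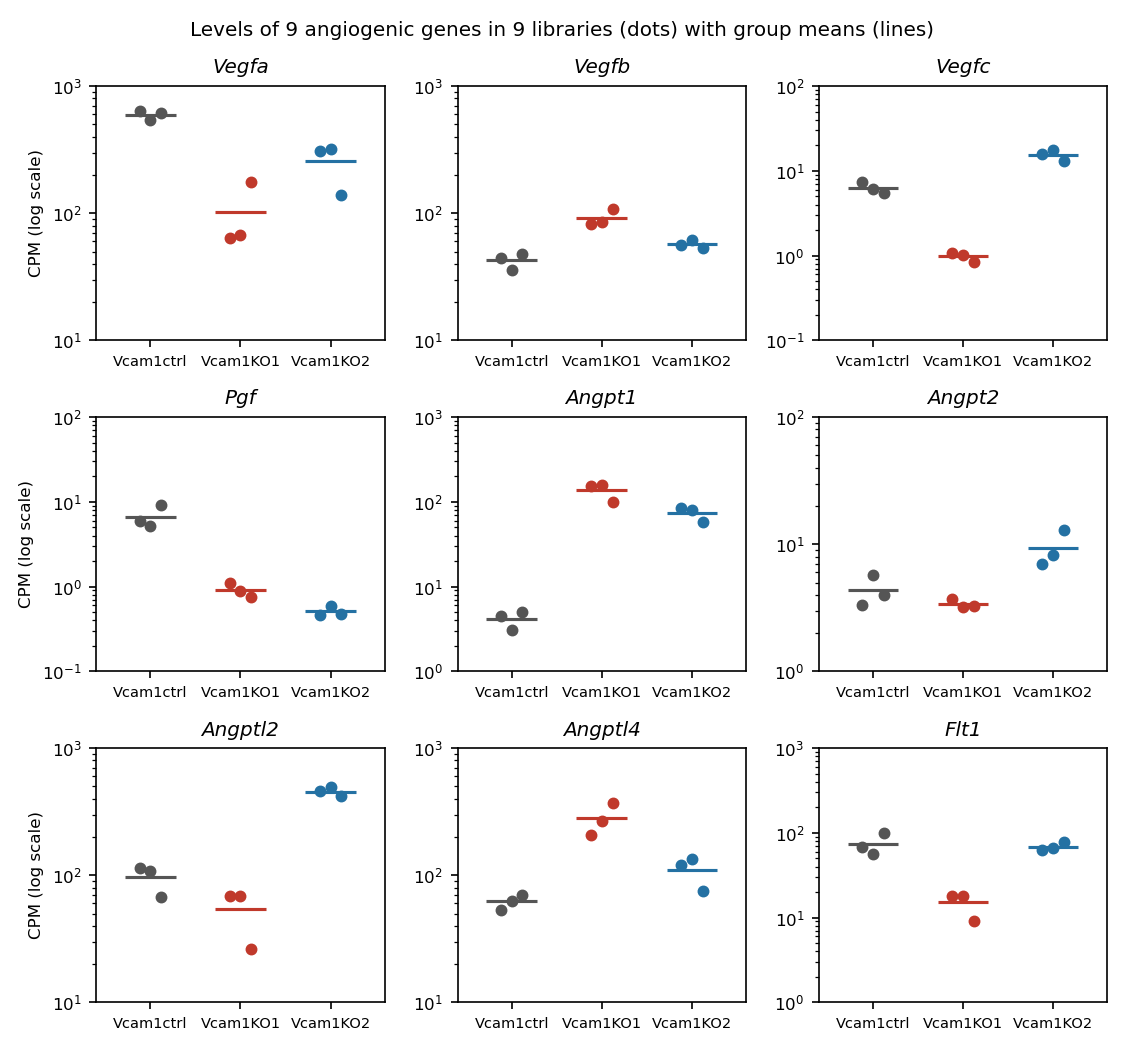
Level of each of the 9 tested genes in every library, in CPM on a log axis whose range differs between panels. Dots are libraries, in replicate order, and lines are group means of 3 libraries. Vegfa and Pgf lie below the control libraries in both clones, Angpt1 lies above them, and Vegfc and Angptl2 are at opposite ends in Vcam1KO1 and Vcam1KO2.

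Compared per length of exon, the 4 ligands changed their proportions. Vegfa made up 81.9%, 82.6% and 80.2% of the summed CPM per kilobase of Vegfa, Vegfb, Vegfc and Pgf in the Vcam1ctrl libraries, 22.1%, 22.4% and 37.9% in Vcam1KO1 and 63.4%, 62.0% and 45.4% in Vcam1KO2. Vegfb took 14.7% to 16.8% in Vcam1ctrl, 61.5% to 76.7% in Vcam1KO1 and 30.9% to 46.8% in Vcam1KO2. Per kilobase, Vegfb was thus the leading ligand of the 4 in all 3 libraries of Vcam1KO1 and, narrowly, in Vcam1KO2 replicate 3. Vegfa led in the other 5 libraries. This order depended on dividing by length. In CPM, Vegfa was above Vegfb in Vcam1KO1 replicate 3 (177 against 108) and in Vcam1KO2 replicate 3 (139 against 53.6). The summed level was 152.7 to 181.2 CPM per kilobase in Vcam1ctrl, 67.4 to 109.1 in Vcam1KO1 and 71.3 to 121.2 in Vcam1KO2, so no clone library reached a control library. The related ligand Vegfd, which is not in these shares, averaged 3.43 ± 1.06 CPM per kilobase in Vcam1ctrl, 14.5 ± 4.74 in Vcam1KO1 and 14.2 ± 2.49 in Vcam1KO2 (SD, n = 3 each).

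Angpt1 showed the largest change among the members. Its level was 4.44, 3.10 and 4.97 CPM in Vcam1ctrl, 154, 157 and 100.0 CPM in Vcam1KO1 and 84.3, 79.1 and 57.8 CPM in Vcam1KO2, and no 2 groups overlapped. The rise was 32.7-fold in Vcam1KO1 (log2 5.03 ± 0.27, adjusted p = 5.73e-07) and 17.6-fold in Vcam1KO2 (log2 4.14 ± 0.26, adjusted p = 1.86e-06). Angpt2, whose product competes with angiopoietin-1 at TEK, held 3.34, 5.74 and 3.98 CPM in Vcam1ctrl, 3.74, 3.23 and 3.25 CPM in Vcam1KO1 and 6.99, 8.17 and 12.9 CPM in Vcam1KO2. Only the Vcam1KO2 libraries lay clear of the control libraries (log2 fold change 1.11 ± 0.28, adjusted p = 0.00832), and in Vcam1KO1 the change of -0.35 ± 0.28 (95% interval -0.98 to 0.28) did not pass the test. Per kilobase, the ratio of Angpt1 to Angpt2 was 0.944, 0.383 and 0.885 in Vcam1ctrl, 29.2, 34.3 and 21.8 in Vcam1KO1 and 8.55, 6.86 and 3.17 in Vcam1KO2. Which of the pair was higher in Vcam1ctrl depended on the length used, since with the longest coding transcripts the control ratios were 1.11, 0.451 and 1.04, while those of the clone libraries were 3.73 to 40.5.

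**Figure D2:**
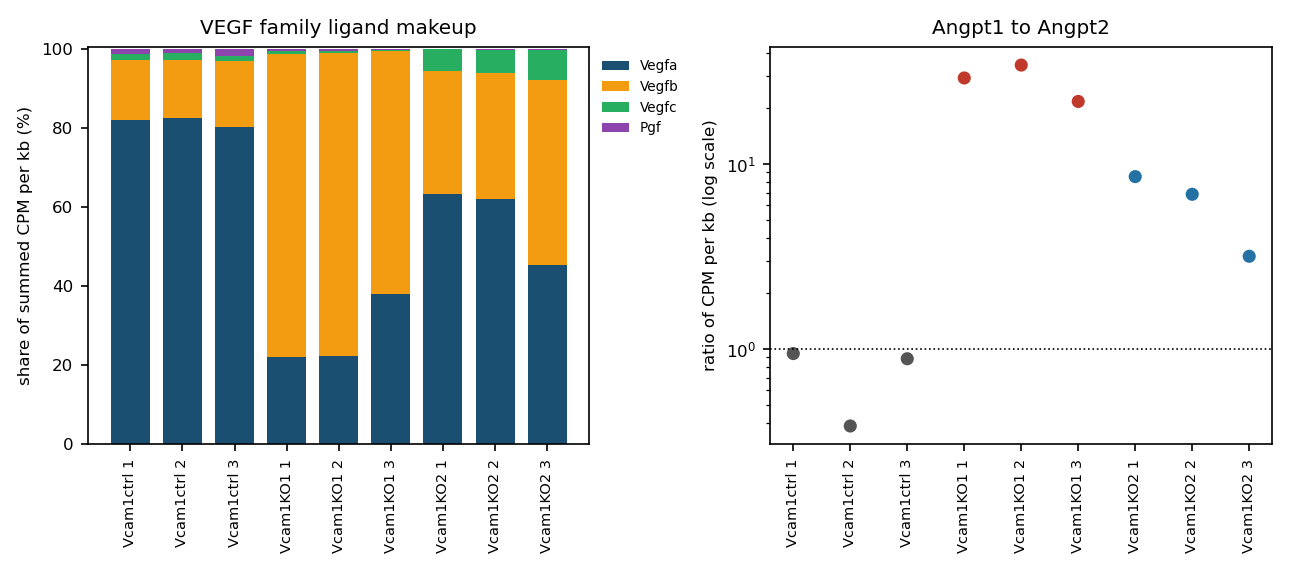
Left, share of each of 4 VEGF family ligands in their summed CPM per kilobase of exon (%), 1 bar per library. Right, ratio of Angpt1 to Angpt2 in CPM per kilobase on a log axis, 1 dot per library, with a dotted line at 1. The Vegfa share was at least 80.2% in each control library and at most 63.4% in each clone library, and the Angpt1 to Angpt2 ratio was at most 0.944 in the control libraries and at least 3.17 in the clone libraries on this scale (at most 1.11 and at least 3.73 with the longest coding transcripts as length).

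Angptl2, a secreted angiopoietin-like factor linked to inflammation and tumor spread, separated the clones. Its level was 113, 108 and 67.3 CPM in Vcam1ctrl, 68.6, 69.0 and 26.2 CPM in Vcam1KO1 and 456, 491 and 416 CPM in Vcam1KO2. In Vcam1KO2 it rose 4.72-fold (log2 2.24 ± 0.35, adjusted p = 0.000543). Vcam1KO1 overlapped the control, with a log2 fold change of -0.82 ± 0.34 that just missed the threshold (adjusted p = 0.0609) and that passed it under limma-voom (0.0487), DESeq2 (0.0245), RLE scaling (0.0481), with no filter (0.0229), and without Vcam1ctrl replicate 3 (0.035) or Vcam1KO1 replicate 1 (0.0459) or 2 (0.0494).

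Angptl4, an inhibitor of lipoprotein lipase that also acts on vessel permeability, was higher in both clones. It was measured at 53.0, 63.0 and 70.5 CPM in Vcam1ctrl, 206, 265 and 368 CPM in Vcam1KO1 and 121, 135 and 75.5 CPM in Vcam1KO2, with the lowest Vcam1KO2 library just above the highest control. The rise was 4.50-fold in Vcam1KO1 (log2 2.17 ± 0.26, adjusted p = 8.96e-05) and 1.77-fold in Vcam1KO2 (log2 0.83 ± 0.26, adjusted p = 0.0219). The call in Vcam1KO2 was lost without Vcam1ctrl replicate 1 (adjusted p = 0.0819) or 2 (0.0534) or without Vcam1KO2 replicate 1 (0.0633) or 2 (0.0834).

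The receptor Flt1 was measured in these tumor cells at 68.1, 56.5 and 99.8 CPM in Vcam1ctrl. It was 17.9, 18.2 and 9.19 CPM in Vcam1KO1, below all control libraries (log2 fold change -2.31 ± 0.29, adjusted p = 0.000107). In Vcam1KO2 it was 62.6, 66.7 and 77.4 CPM, inside the control range, and the difference of -0.12 had a 95% interval of -0.74 to 0.50. Vcam1KO1 was 4.56-fold below Vcam1KO2 (log2 -2.19 ± 0.29, adjusted p = 0.000461). Kdr, the main signaling receptor for VEGF-A, had 1, 0 and 1 counts in Vcam1ctrl, 9, 2 and 1 in Vcam1KO1 and 0, 0 and 1 in Vcam1KO2, so that 8 of 9 libraries were within 3 counts, a floor of 0.0239 to 0.0553 CPM depending on the library. Any difference in Kdr was not detectable at this depth. The summed endothelial markers were 17.8 to 23.9 CPM in Vcam1ctrl, 14.3 to 23.8 CPM in Vcam1KO1 and 3.49 to 4.81 CPM in Vcam1KO2, but their members moved in opposite directions. Of 6 tested in Vcam1KO1, 1 was higher, 3 were lower and 2 were not called, beside 29.9% higher and 30.0% lower of all genes. In Vcam1KO2 1 was higher, 2 were lower and 3 were not called, beside 25.3% higher and 26.1% lower. The sum in Vcam1KO1 was mostly Mmrn2, which rose from 0.122 CPM in Vcam1ctrl to 14.2 CPM, while Esam fell from 6.93 to 0.230 CPM and Egfl7 from 11.1 to 4.40 CPM.

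Of the 9 tested members, 3 were higher and 4 lower in Vcam1KO1, where 59.9% of all tested genes passed the test (29.9% higher and 30.0% lower). In Vcam1KO2 6 were higher and 2 lower, where 51.4% of all genes passed (25.3% higher and 26.1% lower). The median absolute log2 fold change of the members was 2.31 in Vcam1KO1, beside 0.784 over all tested genes, and 1.22 beside 0.643 in Vcam1KO2. Both comparisons use the same 3 control libraries. With the 6 clone libraries pooled against the control, 3 members were higher (Vegfb, Angpt1 and Angptl4) and 2 lower (Vegfa and Pgf), beside 43.0% of all genes called (21.7% higher and 21.2% lower). The pooled log2 fold change was 4.66 ± 0.42 for Angpt1 (adjusted p = 2.76e-05), -3.23 ± 0.34 for Pgf (7.22e-05), -1.73 ± 0.50 for Vegfa (0.0196), 1.65 ± 0.47 for Angptl4 (0.0189) and 0.80 ± 0.24 for Vegfb (0.0229). These 5 are also the members whose clone libraries did not overlap the control, beside 44.2% of all genes. The last 3 calls depended on single control libraries. Vegfa was lost without Vcam1ctrl replicate 1 (adjusted p = 0.0599) or 3 (0.0544), Vegfb without replicate 1 (0.0666) or 2 (0.0999), and Angptl4 without replicate 1 (0.077), 2 (0.0645) or 3 (0.0515), leaving 2, 3 and 3 members called without replicates 1, 2 and 3. Pooling sets the 2 clones as 1 group, and the 4 members not called there (Vegfc, Angpt2, Angptl2 and Flt1) were those called in 1 clone only or in opposite directions.

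**Figure D3:**
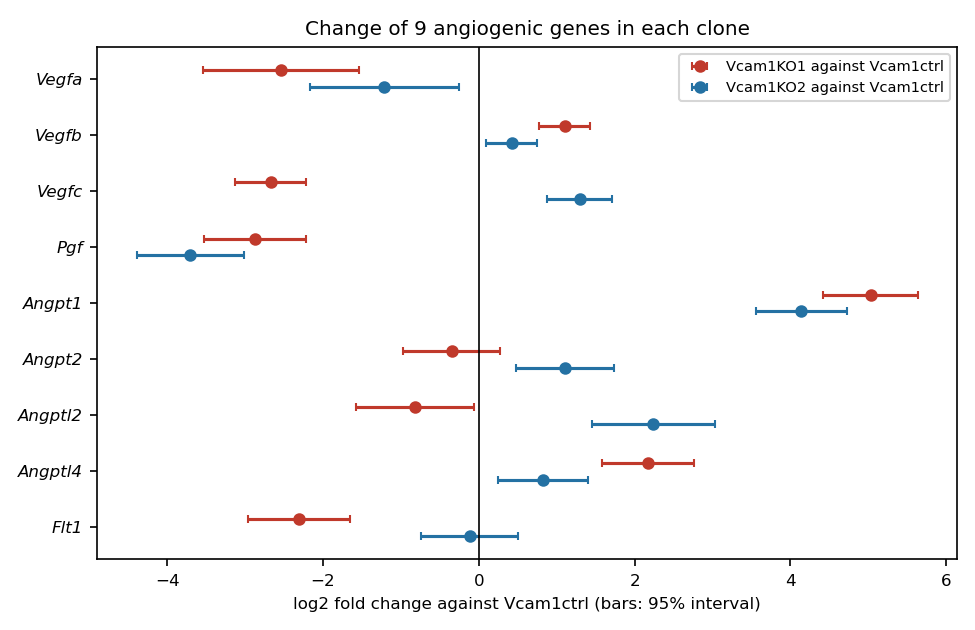
Log2 fold change of the 9 tested genes in Vcam1KO1 and Vcam1KO2 against Vcam1ctrl. Points are estimates of the fit with 3 groups of 3 libraries and bars their 95% intervals. Both intervals lie on the same side of 0 for Vegfa, Vegfb, Pgf, Angpt1 and Angptl4, and those of Vegfc and Angptl2 lie on opposite sides, although Angptl2 in Vcam1KO1 missed the threshold after adjustment.

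The clones were then compared with each other. All 9 tested members passed the test, beside 38.7% of all genes (20.2% higher and 18.5% lower), with 4 higher and 5 lower in Vcam1KO1, and the median absolute log2 difference was 1.34 beside 0.515 over all genes. The libraries of the clones did not overlap for 8 members, beside 54.9% of all genes, and Vegfa was the exception. Besides Vegfc and Flt1, the differences of Vcam1KO1 from Vcam1KO2 were -3.06 ± 0.36 for Angptl2, -1.46 ± 0.28 for Angpt2, 1.34 ± 0.26 for Angptl4 and 0.68 ± 0.14 for Vegfb, at adjusted p values of 0.000268, 0.00348, 0.0033 and 0.00529. The remaining 3 were close to the threshold, Vegfa at -1.32 ± 0.43 (adjusted p = 0.035), Pgf at 0.83 ± 0.29 (0.0471) and Angpt1 at 0.89 ± 0.23 (0.0129). The difference in Vegfa grew to -1.97 without Vcam1KO1 replicate 3 (0.00222). Vegfa lost its call without Vcam1ctrl replicate 1 (0.0502), Vcam1KO1 replicate 1 (0.088) or 2 (0.101), or Vcam1KO2 replicate 1 (0.0846) or 2 (0.108). Pgf lost it without Vcam1ctrl replicate 1 (0.0683), Vcam1KO1 replicate 1 (0.166) or 2 (0.0831), or Vcam1KO2 replicate 1 (0.15), 2 (0.0753) or 3 (0.137), and Angpt1 without Vcam1KO1 replicate 1 (0.0568) or Vcam1KO2 replicate 3 (0.0642).

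Ordered by level per kilobase of exon, the members formed a different series in each group. In Vcam1ctrl, Vegfa led at 139 ± 11.7 CPM per kilobase (SD, n = 3), followed by Vegfb at 26.7 ± 3.88, Angptl4 at 17.6 ± 2.48, Angptl2 at 15.3 ± 4.01 and Flt1 at 5.54 ± 1.66. Vegfc (2.56), Pgf (2.30), Angpt2 (1.18) and Angpt1 (0.801) came next, with Kdr last. The neighbours Angptl4 and Angptl2, Vegfc and Pgf, and Angpt2 and Angpt1 overlapped in range. In Vcam1KO1, Angptl4 led at 79.0 ± 23.0 CPM per kilobase, with Vegfb at 57.4 ± 8.48, Angpt1 at 26.3 ± 6.13 and Vegfa at 24.0 ± 15.1, where Angptl4 and Vegfb, and Angpt1 and Vegfa, overlapped. In Vcam1KO2, Angptl2 led at 72.3 ± 5.97 CPM per kilobase, with Vegfa at 59.95 ± 23.9, Vegfb at 35.8 ± 2.71 and Angptl4 at 31.1 ± 8.72, and each of these overlapped its neighbour. Angpt1 went from rank 9 in Vcam1ctrl to rank 3 in Vcam1KO1 and rank 5 in Vcam1KO2.

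Other genes of the VEGF and angiopoietin pathway were examined as a list of 18, of which 14 were tested. In the pooled comparison 5 were higher and 4 lower, where 21.7% of all tested genes were higher and 21.2% lower, with a median log2 fold change of 1.31 beside 0.07 over all genes. In Vcam1KO1 8 were higher and 6 lower (29.9% and 30.0% of all genes), and in Vcam1KO2 6 were higher and 4 lower (25.3% and 26.1%). The 3 with the largest pooled change were Ptprb, Flt4 and Angpt4. Ptprb, a phosphatase that restrains TEK, fell from 105 ± 21.9 CPM in Vcam1ctrl to 0.0284 ± 0.0405 CPM in Vcam1KO1 (0 to 5 counts per library) and 0.978 ± 0.0715 CPM in Vcam1KO2 (SD, n = 3 each; pooled log2 fold change -7.71 ± 1.12, adjusted p = 0.00054). Flt4, the receptor of VEGF-C and VEGF-D, fell from 88.7 ± 34.5 CPM to 6.35 ± 1.23 CPM in Vcam1KO1 and 0.442 ± 0.17 CPM in Vcam1KO2 (log2 -4.70 ± 0.99, adjusted p = 0.0042). Vegfc thus rose in the clone in which Flt4 was lowest and fell in the other. Angpt4, a further TEK ligand, rose from 3.65 ± 0.652 CPM to 35.8 ± 17.3 CPM in Vcam1KO1 and 115 ± 14.5 CPM in Vcam1KO2 (log2 4.37 ± 0.69, adjusted p = 0.00088).

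The coreceptors and the remaining ligand of this list were chosen for mention after their values were seen. Nrp1, which binds VEGF-A beside KDR, rose from 16.6 ± 3.98 CPM in Vcam1ctrl to 62.2 ± 2.13 in Vcam1KO1 and 77.1 ± 3.02 in Vcam1KO2. Nrp2, the coreceptor of VEGF-C, was at 113 ± 21.5 CPM in Vcam1ctrl, fell to 71.4 ± 5.47 in Vcam1KO1 (adjusted p = 0.00537) and rose to 239 ± 30.2 in Vcam1KO2 (adjusted p = 0.000381). Vegfd, the other FLT4 ligand, rose from 8.26 ± 2.55 CPM to 35.0 ± 11.4 in Vcam1KO1 and 34.1 ± 6.004 in Vcam1KO2, and unlike Vegfc it did not pass the test between the clones (log2 difference 0.04 ± 0.27, adjusted p = 0.926). Tek, the angiopoietin receptor, had 0 to 12 counts per library and Tie1 1 to 10, and neither was tested.

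**Figure D4:**
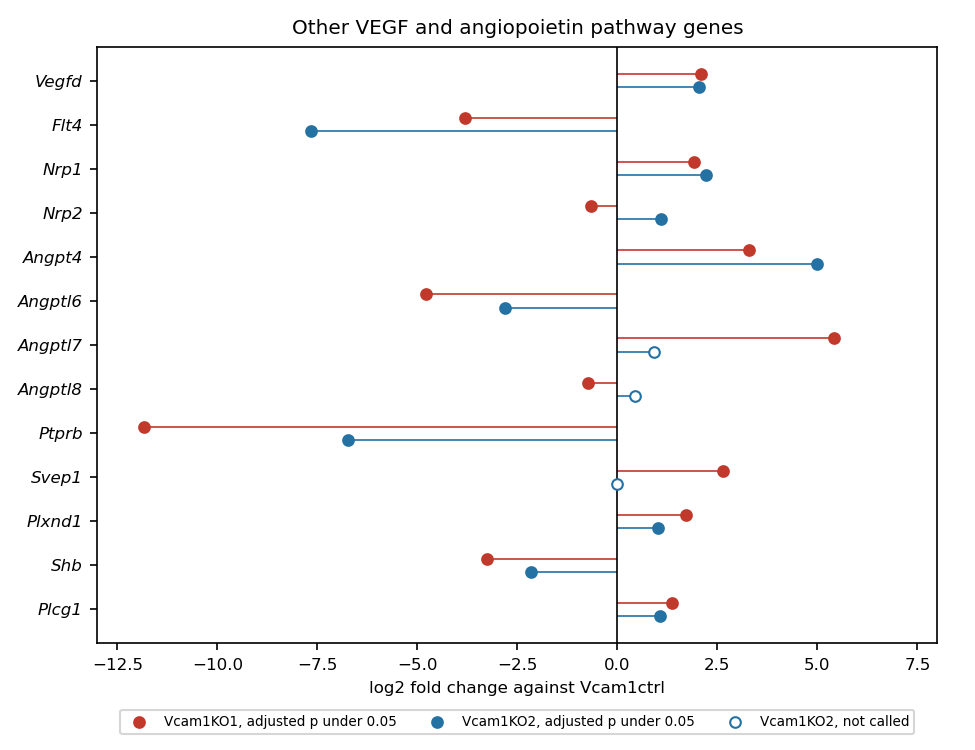
Log2 fold change against Vcam1ctrl of 13 tested genes of the VEGF and angiopoietin pathway outside the members, in Vcam1KO1 (red) and Vcam1KO2 (blue). Filled dots passed an adjusted p of 0.05 and open dots did not. Ptprb, Flt4, Angptl6 and Shb fell in both clones, Vegfd, Nrp1, Angpt4, Plxnd1 and Plcg1 rose in both, and Nrp2 fell in Vcam1KO1 and rose in Vcam1KO2. Angptl1 is left out because it had 0 counts in all Vcam1ctrl and Vcam1KO2 libraries.

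Proteases and partners that release or hold the factors gave 4 higher, 1 lower and 4 not called of 9 tested in the pooled comparison, beside 21.7% higher and 21.2% lower of all genes, with a median log2 fold change of 0.26. Adamts3 and Ccbe1, whose products together cleave the VEGF-C precursor to its active form, were both higher. Adamts3 had 1 to 8 counts in the Vcam1ctrl libraries and rose to 1.08 ± 0.116 CPM in Vcam1KO1 and 3.90 ± 0.37 CPM in Vcam1KO2 (pooled log2 fold change 5.36 ± 0.84, adjusted p = 0.000806). Ccbe1 rose from 7.70 ± 1.47 CPM to 43.1 ± 18.4 in Vcam1KO1 and 62.2 ± 5.30 in Vcam1KO2 (log2 2.77 ± 0.32, adjusted p = 0.000124). Mmp2, a collagenase that frees matrix-bound factors, rose by 3.50 ± 0.49 on the log2 scale (adjusted p = 0.000438). Mmp9 and Pcsk6 are named after their values were seen. Mmp9 fell from 466 CPM in Vcam1ctrl to 8.34 in Vcam1KO1 (adjusted p = 3.14e-07) and was not called in Vcam1KO2 (376 CPM). Pcsk6 was the 1 gene called lower in the pooled comparison (log2 -1.36 ± 0.41, adjusted p = 0.0238). Of the tip cell genes, 2 of 7 were higher and 2 lower, against the same shares of all genes, the former being Apln (log2 4.38 ± 0.48), the apelin ligand, and Adamts4 (3.95 ± 0.32), and the latter including the netrin receptor Unc5b (-1.02 ± 0.15). Of 11 tested inhibitors of angiogenesis, 3 were higher and 3 lower, again beside 21.7% and 21.2%. Col4a3, the source of the inhibitor tumstatin, fell from 53.5 to 0.846 CPM (log2 -5.98 ± 0.68), Timp3, which blocks VEGF-A binding to KDR, fell from 14.8 to 0.457 CPM (log2 -5.01 ± 0.29), and the matricellular gene Sparc rose from 451 to 5255 CPM (log2 3.54 ± 0.25).

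Vegfa and Angptl4 are both known targets of hypoxia-inducible factors, and they changed in opposite directions in each clone. Pearson's r of their log2 CPM was -0.732 over the 9 libraries, and 0.875 once each group's mean was subtracted. The part of hypoxia-inducible factors in these changes was not tested. A list of hypoxia-inducible factors, regulators and common targets was mixed in direction. Of 26 genes tested, 3 were higher, 7 lower and 16 not called in the pooled comparison, where 21.7% of all genes were higher and 21.2% lower and the median log2 fold change was -0.41 beside 0.07 over all genes. In Vcam1KO1 6 were higher and 13 lower (29.9% and 30.0% of all genes), and in Vcam1KO2 4 were higher and 8 lower (25.3% and 26.1%). Slc2a1, the glucose transporter GLUT1, fell from 757 ± 52.5 CPM in Vcam1ctrl to 62.7 ± 8.50 in Vcam1KO1 and 105 ± 12.01 in Vcam1KO2 (SD, n = 3 each; pooled log2 fold change -3.17 ± 0.24, adjusted p = 1.04e-05). Adm, the vasodilator peptide adrenomedullin, fell from 4.32 to 0.123 CPM (log2 -5.10 ± 0.46), and Ero1l, an oxidase of the endoplasmic reticulum, fell by 2.65 ± 0.67 on the log2 scale (adjusted p = 0.0104). Hif1a, named after its values were seen, was at 163 ± 15.3 CPM in Vcam1ctrl, 280.3 ± 51.6 in Vcam1KO1 and 211 ± 52.7 in Vcam1KO2, and passed the test in Vcam1KO1 (adjusted p = 0.00779) but not in Vcam1KO2 (adjusted p = 0.152).

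Angptl4 is also a common target of the PPAR receptors, and of 12 other genes of that list 4 were higher and 3 lower in the pooled comparison (21.7% and 21.2% of all genes), with a median log2 fold change of 0.99 beside 0.07. Between the clones, 7 of the 12 were higher in Vcam1KO1 and 5 were not called, beside 20.2% of all genes higher and 18.5% lower. Pparg rose from 8.06 ± 1.30 CPM in Vcam1ctrl to 80.8 ± 11.3 in Vcam1KO1 and 15.2 ± 2.75 in Vcam1KO2, and the fatty acid binding protein gene Fabp4 stood at 0.319, 9.42 and 0.594 CPM in the same order. Pdk4, which restrains pyruvate oxidation, rose from 0.731 to 29.2 and 13.9 CPM (pooled log2 fold change 4.85 ± 0.76, adjusted p = 0.000835). Pparg and Angptl4 had the same order of group means, Vcam1ctrl below Vcam1KO2 below Vcam1KO1. Ppara, named after its values were seen, fell from 0.997 CPM in Vcam1ctrl to 0.267 in Vcam1KO1 and 0.0748 in Vcam1KO2. Whether the PPAR receptors had a part in the change of Angptl4 was not tested.

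The genes nearest in pattern to each tested member were sought among 13087 genes with a mean of at least 1 CPM. Nearness was Pearson's r of log2 CPM over the 9 libraries. The libraries form 3 groups, so r also takes in the differences between group means. The highest values among many genes were picked, so they are a description and not a test. Among the closest were Trim8 (r = 0.9946) and the chemokine Ccl20 (0.9862) for Vegfa, Fam214b (0.9932) for Vegfb, Ralgps2 (0.9945) and P2ry1 (0.994) for Vegfc, and Gm7336 (0.9958) and Kcnq1 (0.9957) for Pgf. For Angpt1 they were Nexn (0.9975) and Cyp1b1 (0.9973), and for Angpt2 Scyl3 (0.9888) and Rbm10 (0.9884). Angptl2 was nearest to Nsmce2 (0.9925) and Tfap2a (0.9872), Angptl4 to Glrx2 (0.9878) and Ap5z1 (0.9848), and Flt1 to Cd300lb (0.9878) and Prickle3 (0.9874). No member was among the 2 nearest genes of another.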

How the data were processed

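RNA of the 9 cultures was sequenced as stranded, paired-end mRNA libraries. Per the study's methods and the labels, the authors pseudoaligned reads with kallisto 0.46.1, with strand and sequence bias options, to GENCODE vM24 transcripts of GRCm38 (mm10). The deposited table holds estimated counts per gene symbol, not normalized; 0 values were not whole and 0 columns were left out. The step that summed transcripts to genes is not given in the sources used here.

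Counts were filtered with filterByExpr (17672 genes left), scaled with TMM and tested with edgeR 4.0.16 (R 4.3.3) quasi-likelihood fits, 2 groups for the 6 clone libraries against 3 and 3 groups otherwise, at a Benjamini-Hochberg adjusted p of 0.05. The procedure was tested on simulated data. Levels are CPM, log2 levels used a prior count of 2, and 3 counts were the floor, which covers counting error only. At totals of 53415907 to 125223073, the spread between libraries was the limit of precision for genes with many counts. For genes with few counts, such as Pgf in the clones (27 to 84 per library), counting error limits it as well. Lengths came from GENCODE vM21 and promoters from RefSeq (GRCm38.p6).

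Named genes were the members, Vcam1, up to 3 called genes per list with the largest pooled change and a mean of at least 1 CPM, and 2 nearest genes per member. Some alleles of the line and 1 gene that this rule names are not reported here. Ero1a was found as Ero1l. Members and lists were chosen with earlier results of these data known. Marker lists not described (leukocyte, hepatocyte, proliferation) were checked in the pooled edgeR comparison. They gave 1 higher and 2 lower of 3 tested, 0 and 4 of 4, and 0 and 0 of 6. Of all tested genes, 21.7% were higher and 21.2% lower. Alternatives were limma-voom (limma 3.58.1), DESeq2 1.42.0, other scalings and filters, a 2-fold threshold, other models and leaving out each library.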

Additional observations from a re-analysis of the deposited data

Results flagged for a closer look

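The difference between the clones was itself tested for each member, and it passed for all 9 (edgeR's quasi-likelihood test, Benjamini-Hochberg adjusted). In log2 units, Vcam1KO1 minus Vcam1KO2 was -3.968 for Vegfc (adjusted p = 3.12e-06), -3.058 for Angptl2 (0.000268), -2.189 for Flt1 (0.000461), -1.458 for Angpt2 (0.00348) and -1.323 for Vegfa (0.035). It was 1.344 for Angptl4 (0.0033), 0.8926 for Angpt1 (0.0129), 0.8337 for Pgf (0.0471) and 0.6822 for Vegfb (0.00529). Each clone is 1 line, so these values compare 2 clones. In the Vcam1KO1 group, replicate 3 had the highest Vegfa, Vegfb and Angptl4 and the lowest Vegfc, Pgf, Angpt1, Angptl2 and Flt1 of the 3 libraries.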

How the results depend on the processing

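Of 648 values of members recomputed under the alternatives, 578 kept their direction and their side of the threshold, 59 lost the call, 8 gained one and 3 changed sign. Vegfc in the pooled comparison went from 0.38 to -0.76 with limma-voom (adjusted p = 0.574) and to -0.69 as the average of the clones' contrasts (adjusted p = 0.00424), which on the log scale gives its fall in Vcam1KO1 more weight than its rise in Vcam1KO2. The same average called Flt1 lower (-1.21, adjusted p = 0.0014). Flt1 in Vcam1KO2 went from -0.12 to 0.14 without Vcam1ctrl replicate 3 (adjusted p = 0.704), in a range of -0.3095 to 0.14 over the fits without 1 library.

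Against a 2-fold change, 2 members were called in the pooled comparison, 3 in Vcam1KO2 and 3 between the clones, and all genes called numbered 2973, 4680, 3712 and 1782 in the pooled, Vcam1KO1, Vcam1KO2 and clone comparisons, beside 7591, 10586, 9087 and 6834 against any change. Leaving out each library gave 2 to 5 members called in the pooled comparison, 7 to 8 in Vcam1KO1, 5 to 8 in Vcam1KO2 and 6 to 9 between the clones, and 5583 to 7913, 9518 to 10867, 7741 to 10203 and 4943 to 7408 genes. The 5 members in Vcam1KO2 came without Vcam1ctrl replicate 1 or 2 or Vcam1KO2 replicate 1. Pgf between the clones also lost its call with limma-voom (adjusted p = 0.125), RLE scaling (0.0515), no filter (0.0982) and only the 6 libraries compared (0.0509), and Vegfa with only the 6 libraries (0.0612). Vegfb in Vcam1KO2 lost its call with DESeq2 (0.0522), RLE scaling (0.0551), no filter (0.0862) and a mean of at least 1 CPM (0.0564). The cause of these changes was not tested. Among the members, Kdr alone was at the limit of detection. No paired analysis was possible because the labels give no replicate numbers, and the numbers used here follow the order of the samples. With the longest coding transcript as length, only neighbours in the order of levels exchanged ranks.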
